A study of Mus musculus with 8 samples.

Results

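The apolipoprotein transcripts of mouse liver were compared between intact liver and liver regrowing after extended hepatectomy, an operation that takes out a large part of the organ. The genes were chosen by name from the deposited table of gene expression: Apoa1, Apoa2, Apoa4, Apoa5, Apob, Apoc1, Apoc2, Apoc3, Apoe and Apom. These 10 names matched 11 of the 47719 rows, because Apoc2 is used for 2 identifiers. One is Apoc2 itself, and the other is a gene that GENCODE calls Gm44805, which overlaps Apoc2 and its neighbour Apoc4 and is given apart from the 10 members. All mice were wild-type C57BL/6. The normal control group holds 2 libraries from livers of mice aged 10 weeks, the day 2 group 4 libraries from 2 days after surgery, and the day 14 group 2 libraries from 14 days after surgery. The design text names a treatment called EMC and one called eLO at day 2, and eLO alone at day 14. The series title describes the therapy as human hepatocyte organoids in a capsule. Which of the 4 day 2 libraries had which treatment is not in the labels, so they form 1 group here, and surgery, time and treatment cannot be told apart in any comparison. Whether each library is a mouse of its own is not stated either, and p-values reflect the spread between these libraries, which may be technical. Levels are listed in the order of replicates, 1 and 2 for control and day 14 and 1 to 4 for day 2.

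Apolipoproteins are the protein part of the particles that carry fat and cholesterol in blood, and hepatocytes are a main source of them. Apob is the scaffold of very low density lipoprotein (VLDL) and stays with its particle, while Apoa1 and Apoa2 are the main proteins of high density lipoprotein (HDL). The small C apolipoproteins, Apoe and Apoa4 move between particles. Apoc2 is the obligate cofactor of lipoprotein lipase, the enzyme that removes fat from circulating particles. Apoc3 restrains this enzyme and Apoa5 favours it, and Apoe is the ligand by which liver receptors take remnants up. Apom rides on HDL and carries the lipid mediator sphingosine 1-phosphate.

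Levels are in FPKM, a fragment count divided by transcript length and by the size of the library. This is meant to let different genes be set side by side. Changes between groups still followed transcript length, as given below, and levels of genes of unlike length are compared with that limit. Total FPKM ran from 686332 to 1298005 per library and absolute depth is unknown. Mitochondrially encoded transcripts took 7.02% to 11.39% of all FPKM in 5 libraries but 20.54% in day 2 replicate 2, 43.26% in day 14 replicate 1 and 17.62% in day 14 replicate 2. Hepatocyte markers were high in each library, with a summed level of 45310 to 95710 FPKM over 8 genes. The day 2 group was split: across genes, r was 0.959 for replicates 1 and 2, 0.968 for replicates 3 and 4, and 0.889 to 0.926 for the other pairs of day 2. Genes are not independent replicates, and these r describe the libraries only. For day 2 replicate 1 the labels differ, with day 1 in the title and day 2 under age. The title of day 2 replicate 3 alone carries the letters TVR, which no label explains, and this library had the lowest Apoa4 and Apoc2 of day 2. The day 2 change of Apoa4 against control was 4.57 log2 units without replicate 1 and 5.34 without replicate 3, and that of Apoc2 3.76 and 4.28, each still called by limma.

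In normal liver the order of levels, highest first, was Apoe, Apoa2, Apoa1, Apoc1, Apoc3, Apob, Apoa5, Apom, Apoc2 and Apoa4. Apoa1 at 7869 to 8654 FPKM and Apoc1 at 7244 to 7969 FPKM overlapped in this order, and the other neighbours did not. Together the 10 genes made up 8.09% and 7.58% of all FPKM in the control libraries. The share was 9.28%, 10.14%, 7.21% and 7.35% at day 2 and 8.34% and 11.5% at day 14. Day 2 overlapped both other groups in this share, and both day 14 libraries lay above both controls. The summed FPKM itself was 58026 and 55432 in control, 50452 to 115013 at day 2, and 108217 and 120791 at day 14. With mitochondrially encoded genes left out of the total, the share was 8.80% and 8.21% in control, 7.75% to 12.77% at day 2, and 14.69% and 13.96% at day 14, where both libraries lay above all others. None of these sums and shares was corrected for the trend with transcript length given below, and its part in them was not tested.

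The makeup of the family also differed between the groups. Apoe held 38.2% ± 0.467 (SD, n = 2) of the summed FPKM of the 10 genes in control, 28.3% ± 3.39 (n = 4) at day 2 and 25.4% ± 7.79 (n = 2) at day 14. Apoa1 held 14.6% ± 0.509, 24.0% ± 3.79 and 17.9% ± 2.32 in the same order, and Apoa2 24.3% ± 0.00707, 15.8% ± 1.71 and 26.4% ± 0.148. Apoa4 and Apoc2 are the last in the control order, at 0.19% ± 0.156 and 0.425% ± 0.0354 of the sum. At day 2 they reached 4.27% ± 2.36 and 5.57% ± 1.86, and at day 14 they were at 0.075% ± 0.0212 and 0.49% ± 0.0707. Apoc1 took 13.4% ± 0.467 in control, 11.1% ± 2.71 at day 2 and 21% ± 4.13 at day 14.

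**Figure D1:**
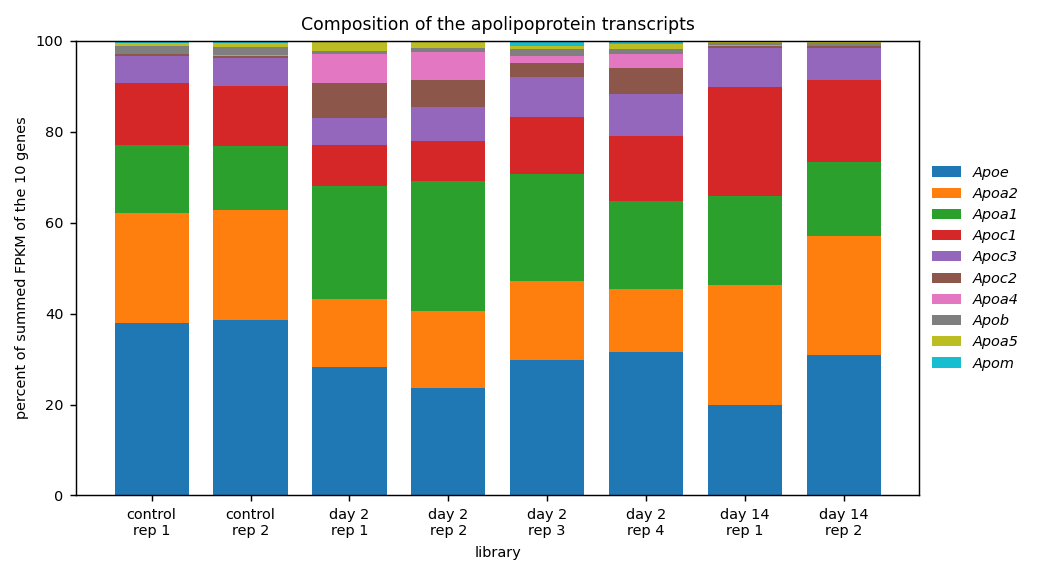
Share of each of the 10 apolipoprotein genes in their summed FPKM, in percent, as stacked bars, 1 bar for each of the 8 libraries (rep is replicate). Apoc2 and Apoa4 form visible bands in the 4 day 2 bars only, and Apoc1 is widest in the day 14 bars.

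The first comparison asked how the liver remnant 2 days after surgery differed from normal liver. Apoa4 and Apoc2 rose, about 32.5-fold and 17.5-fold by group means, and no member fell. So 2 of the 10 members were called higher, where 9.72% of the 12340 genes tested were called higher and 21.2% in either direction (limma on log2(FPKM + 1), Benjamini-Hochberg adjusted p under 0.05). The median change of the members was 0.46 log2 units and that of all genes tested 0.05. All 10 passed the filter of 1 FPKM in 2 libraries in every group, so none entered through 1 group alone. By values alone, 5 of the 10 (Apoa1, Apoa4, Apoa5, Apoc2 and Apoc3) lay above both controls in each day 2 library, as did 26.1% of all genes tested, and Apob lay below, as did 25.4%.

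Apoa4 is made mostly in the intestine, and in mouse liver it is known to climb with fasting or fat load. It stood at 47.5 and 168 FPKM in the controls, at 4499, 7036, 908 and 1542 FPKM at day 2, and at 101 and 70.8 FPKM at day 14. All day 2 libraries lay above all others, replicates 1 and 2 highest, while day 14 lay within the control range. The day 2 mean was 3496 ± 2832 FPKM (n = 4) against 108 ± 85.1 (n = 2) in control. Its log2 change was 4.83 ± 0.84 (SE; limma adjusted p = 0.00912) and, being taken after 1 was added to each FPKM, is somewhat too small for genes of low level. The controls lay far apart. Without control replicate 1 the change was 3.93 (limma adjusted p = 0.105) and without control replicate 2 it was 5.73 (limma adjusted p = 0.0561).

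Apoa4 lies on chromosome 9 of GRCm38 at 46240696 to 46243459 on the plus strand. An antisense gene, Gm10680, at 46242621 to 46243529 shares 632 exon bases with it. Gm10680 stood at 1.73 and 0.571 FPKM in control, at 684, 843, 4.87 and 362 FPKM at day 2, and at 9.04 and 9.65 FPKM at day 14. It was therefore high where Apoa4 was high, except in day 2 replicate 3. Whether the counting used strand is not given in the sources used here, and without strand reads of the 2 genes cannot be told apart. The sum of both was 49.3 and 168 FPKM in control and 5183, 7879, 913 and 1904 FPKM at day 2, and each day 2 sum lay above both control sums.

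Apoc2, the lipase cofactor, stood at 232 and 251 FPKM in the controls, at 5377, 6828, 1829.9 and 2841 FPKM at day 2, and at 586 and 533 FPKM at day 14. The 3 groups did not overlap. As for Apoa4, replicates 1 and 2 were the highest. Its log2 change at day 2 was 3.94 ± 0.50 (limma adjusted p = 0.0034), at 3.89 without control replicate 1 (limma adjusted p = 0.0591) and 4.0 without control replicate 2 (limma adjusted p = 0.0561). The gene is on chromosome 7 at 19671579 to 19677941 on the minus strand. The overlapping Gm44805, at 19671584 to 19681423 on the same strand, shares 646 exon bases with it. Gm44805 was at 41.1 and 45.4 FPKM in control and at 20.4, 52.7, 104 and 79.2 FPKM at day 2, groups that overlap. Reads shared between these genes make either level uncertain, but the sum with Apoc2 was 273 and 296 FPKM in control and 1934 to 6880.5 FPKM at day 2.

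**Figure D2:**
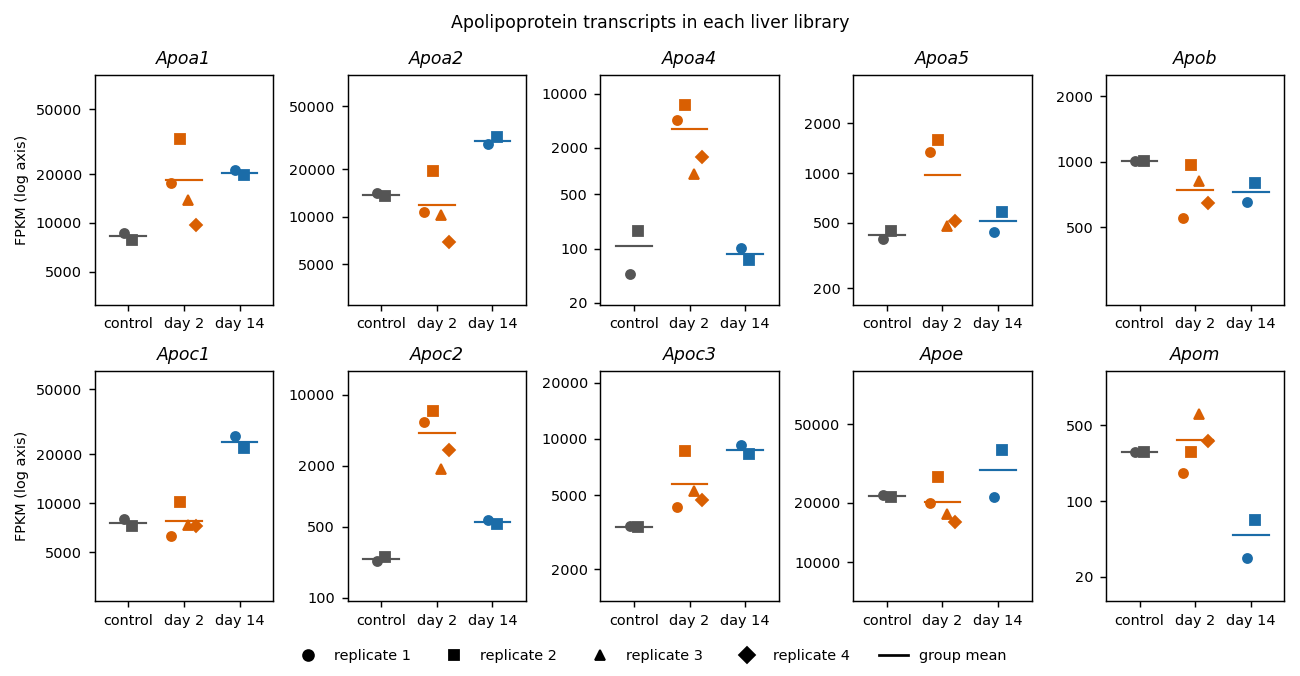
Level of each apolipoprotein gene in FPKM on a log axis, 1 point per library by group (control n = 2, day 2 n = 4, day 14 n = 2), with marker shapes for replicates and a line at the group mean. Apoa4 and Apoc2 stand highest at day 2, Apoc1 and Apoa2 at day 14, and Apom is lowest at day 14.

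The sequences before the starts of Apoa4, Apoc2 and Apoa5 are shown because these genes had their highest levels in the same day 2 libraries. They are RefSeq sequence of GRCm38.p6, 5′ to 3′ on the strand of the gene, cut where an exon of a protein-coding gene begins. They cover chr9:46240594-46240695 (plus strand) for Apoa4, chr7:19677942-19678082 (minus strand) for Apoc2 and chr9:46268383-46268632 (plus strand) for Apoa5. RefSeq places the start of Apoa4 148 bases downstream of the GENCODE start, so its stretch is short. Capitals mark motif matches.
Apoa4: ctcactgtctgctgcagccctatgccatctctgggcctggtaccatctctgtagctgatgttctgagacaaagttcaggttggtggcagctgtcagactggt
Apoc2: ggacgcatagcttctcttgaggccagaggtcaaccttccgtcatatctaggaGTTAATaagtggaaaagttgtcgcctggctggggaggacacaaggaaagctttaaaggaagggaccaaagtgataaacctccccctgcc
Apoa5: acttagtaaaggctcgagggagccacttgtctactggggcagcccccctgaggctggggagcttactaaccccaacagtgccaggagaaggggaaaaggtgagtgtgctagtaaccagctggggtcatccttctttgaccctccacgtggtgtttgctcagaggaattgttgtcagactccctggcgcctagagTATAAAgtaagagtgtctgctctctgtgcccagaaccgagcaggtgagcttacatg
Exact matches on both strands were sought in the 250 bases before the start of the 8 members found in the RefSeq table, Apoc1 and Apoc3 having no entry. These windows are not all upstream sequence: the RefSeq start of Apom lies 249 bases downstream of the GENCODE start, which leaves 1 base of its window outside exons, and the windows of Apoa1, Apoa4, Apob and Apoc2 are in part exon as well. The core GTTAAT of the HNF1 site was found in 1 of the 8, Apoc2, at 89 to 84 bases before its start, and in 6.43% of 32851 windows of that length. The letters TATAAA of the TATA box were found in 3, Apoa2, Apoa5 and Apob, and in 12.4% of all windows. They lay 212 to 207 bases before the RefSeq start in Apoa2, 56 to 51 in Apoa5 and 60 to 55 in Apob. In Apob the first of these bases is 31 bases before the GENCODE start. The cAMP response element core TGACGT was in 0 of the 8 and 6.47% of all, and the HNF4 site of the DR1 type (CAAAGGTCA or CAAAGTCCA) in 0 of the 8 and 0.807% of all. These are matches of letters in a short window and describe nothing of binding.

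The other regulators of lipase did not pass the test at day 2. Apoa5, which favours lipolysis, stood at 399 and 448 FPKM in control, at 1349.9, 1584, 476 and 509.6 FPKM at day 2, and at 441 and 585 FPKM at day 14. Replicates 1 and 2 of day 2 were thus far above the controls and replicates 3 and 4 close above them. Its log2 change was 1.00 ± 0.53 (95% interval -0.21 to 2.22; limma adjusted p = 0.203). Apoc3, which restrains the lipase, was at 3391 and 3374 FPKM in control and at 4296, 8619, 5263 and 4704 FPKM at day 2 (log2 change 0.70 ± 0.34, 95% interval -0.08 to 1.48; limma adjusted p = 0.171). Apoc1, known to slow receptor uptake of particles, was at 7969 and 7244 FPKM in control and at 6290.2, 10183, 7386 and 7200.01 FPKM at day 2, and the groups overlapped.

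Among the structural proteins of HDL, Apoa1 stood at 8654 and 7869 FPKM in control and at 17612, 32751, 13809 and 9748 FPKM at day 2. All day 2 values were above the controls, but the log2 change of 1.02 ± 0.47 did not pass (95% interval -0.06 to 2.09; limma adjusted p = 0.152), though with quantile scaling it was 0.81 and called (limma adjusted p = 0.0485). Apoa2 was at 14096 and 13457 FPKM in control and at 10650.5, 19545, 10295 and 6962 FPKM at day 2, on both sides of the controls. The ratio of Apoa2 to Apoa1 within a library, looked at after the values were seen, was 1.63 and 1.71 in control, 0.605, 0.597, 0.746 and 0.714 at day 2, and 1.35 and 1.61 at day 14. The day 2 ratios lay below all others. A ratio within a library does not change where each library is multiplied by 1 factor. It can change under quantile scaling, and it keeps any difference that follows transcript length.

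Apob, the VLDL scaffold, was at 1003 and 1005 FPKM in control, at 550.2, 963, 818 and 643 FPKM at day 2, and at 653 and 799 FPKM at day 14. Both hepatectomy groups lay below the controls, without passing the test (log2 change -0.47 ± 0.29 at day 2, limma adjusted p = 0.275, and -0.47 ± 0.34 at day 14, limma adjusted p = 0.386). Apoe, which macrophages make as well as hepatocytes, was at 21949 and 21335 FPKM in control, at 19959, 27222, 17529.7 and 15947 FPKM at day 2, and at 21500.5 and 37298 FPKM at day 14. All 3 groups overlapped. The summed level of 8 Kupffer cell markers was 116 to 137 FPKM in control, 116 to 195 at day 2 and 58.8 to 64.2 at day 14. Of these markers 1 rose and 2 fell at day 2 and 4 fell at day 14. Of all genes tested, 9.72% were called higher and 11.5% lower at day 2, and 4.58% lower at day 14. The part of macrophages in the Apoe level was not tested, and in bulk tissue fewer cells of a type and less RNA per cell cannot be told apart.

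**Figure D3:**
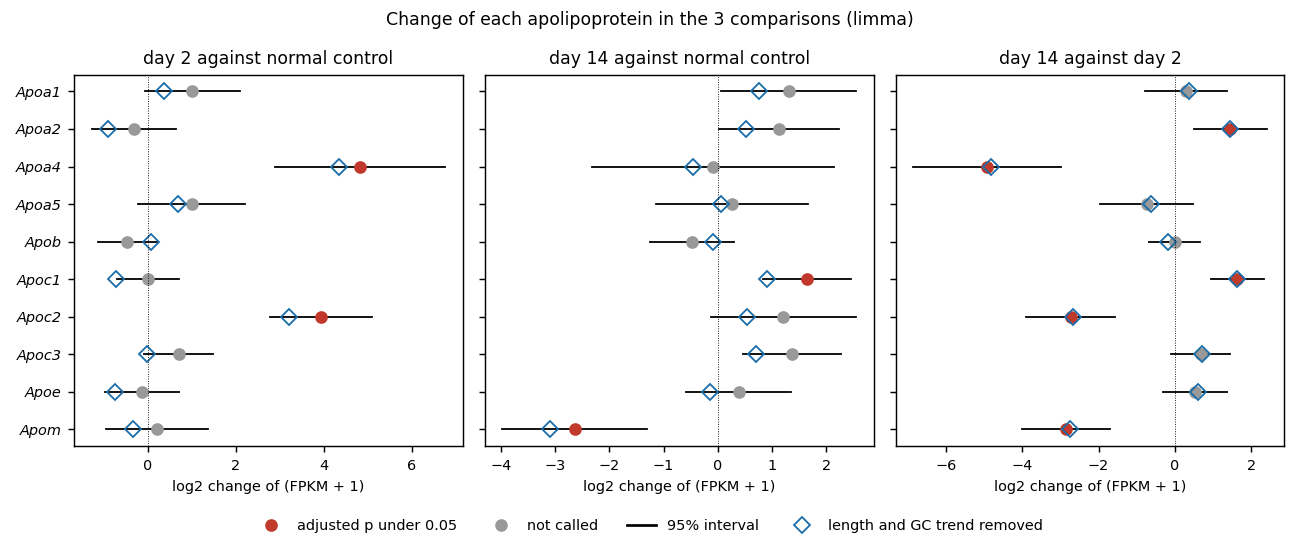
Log2 change of (FPKM + 1) of each gene in the 3 comparisons, with 95% intervals from limma as lines. Filled points are the values as tested, red where the adjusted p is under 0.05 and grey otherwise, and open diamonds the values after removal of the length and GC trend. Apoa4 and Apoc2 stand far from 0 at day 2 by either measure, and Apom at day 14.

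Liver 14 days after surgery was next set against intact liver. Apoc1 rose about 3.13-fold and Apom fell to about 0.170 of its control level. Of the 10 members 1 was called higher and 1 lower, where 5.21% and 4.58% of genes tested were called in these directions, 9.79% in all. The median change of the members was 0.76 log2 units and that of all genes tested 0.00. Each day 14 library lay above both controls for Apoa1, Apoa2, Apoc1, Apoc2 and Apoc3, as it did for 35.3% of genes tested, and below them for Apob and Apom, as for 35.7%.

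Apoc1, on chromosome 7 at 19689481 to 19692660, was at 25851 and 21804 FPKM at day 14. Its log2 change against control was 1.64 ± 0.35 (limma adjusted p = 0.0333), and 0.91 after removal of the length and GC trend (limma adjusted p = 0.125). It was 1.71 and 1.57 without control replicates 1 and 2 (limma adjusted p = 0.191 and 0.237) and 1.52 and 1.77 without day 14 replicates 1 and 2 (limma adjusted p = 0.176 and 0.0621). The call therefore did not hold with 1 library fewer in either group. Without day 2 replicate 1, which enters here only through the shared spread, its adjusted p by limma was 0.0507.

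Apom, on chromosome 17 at 35128997 to 35132050, stood at 285 and 282 FPKM in control, at 181, 283, 638 and 356 FPKM at day 2, and at 29.8 and 66.7 FPKM at day 14. Day 14 lay below all other libraries, while day 2 lay on both sides of the controls. The control mean of 283 ± 1.86 FPKM (n = 2) stood against 48.3 ± 26.1 at day 14 (n = 2; log2 change -2.64 ± 0.58; limma adjusted p = 0.0346). The change was -3.09 after removal of the length and GC trend, which kept the call. It was -2.63 and -2.64 without control replicates 1 and 2 and -2.07 without day 14 replicate 1 (limma adjusted p = 0.191, 0.225 and 0.203), and -2.64 without day 2 replicate 4 (limma adjusted p = 0.0519).

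Of the HDL proteins at day 14, Apoa1 stood at 21142 and 19644 FPKM (log2 change 1.3 ± 0.54; limma adjusted p = 0.150) and Apoa2 at 28633 and 31710.4 FPKM (1.13 ± 0.48; limma adjusted p = 0.160). Apoc3 was at 9280.05 and 8281 FPKM (1.37 ± 0.39; limma adjusted p = 0.0629). These libraries lay above both controls for each of the 3 genes, with unadjusted p under 0.05 but no call over all genes. Apoc2 at day 14 kept a level above the controls without passing (1.21 ± 0.58; limma adjusted p = 0.206). Apoa4 changed by -0.08 ± 0.97 log2 units, with a 95% interval of -2.32 to 2.15 that is too wide to show equal levels.

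Both comparisons with the controls also differed by transcript length. Over 11318 protein-coding genes tested, the median change at day 2 was 0.60 log2 units in the shortest eighth of transcripts, up to 1353 bases, and -0.37 in the longest. At day 14 these medians were 0.45 and -0.31. Of the 10 members 6 fall in that shortest eighth, from Apoa2 at 518 bases upward, while Apob, at 13934 bases, falls in the longest, from 5953 bases. After the trend with length and GC content was removed in each library, the median change of the members was 0.04 log2 units at day 2 and 0.29 at day 14. Apoa4 and Apoc2 then changed by 4.35 and 3.22 at day 2 and kept their calls. Apoa1 went to 0.38, Apoc3 to -0.01, Apob to 0.08, Apom to -0.34 and Apoc1 to -0.72 log2 units at day 2, the last 4 of these across 0. Apoa2 and Apoe went from -0.32 and -0.13 to -0.90 and -0.75 at day 2. At day 14 Apoa1, Apoa2 and Apoc3 went to 0.76, 0.52 and 0.71, and Apoe crossed 0, from 0.39 to -0.14.

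**Figure D4:**
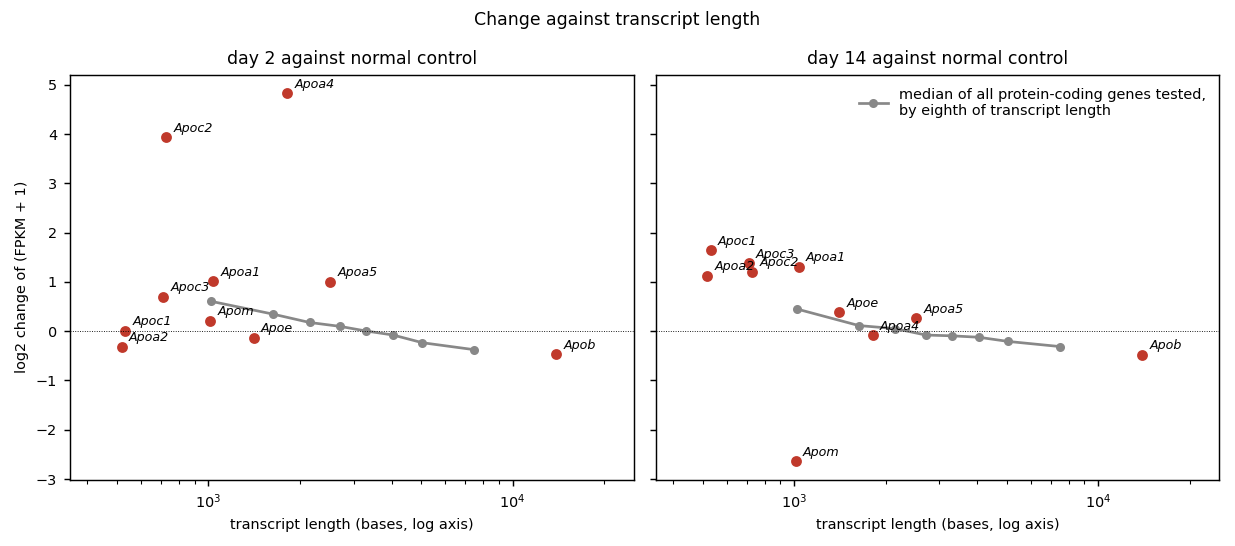
Log2 change of each member (red points) against the length of its transcript in bases on a log axis, for day 2 and day 14 against normal control. The grey line joins the medians of all protein-coding genes tested in 8 groups by length and runs from 0.60 to -0.37 at day 2. Apoa4 and Apoc2 lie farthest from it at day 2, and Apom at day 14.

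The third comparison, day 14 against day 2, took from the controls only their part in the shared spread and asked what differed between the 2 times. Apoa4, Apoc2 and Apom were lower at day 14, and Apoc1 and Apoa2 higher. Of the 10 members 2 were called higher and 3 lower, where 9.09% and 7.03% of genes tested were called in these directions, 16.1% in all. The median change of the members was 0.14 log2 units and that of all genes -0.03. The length trend was slight here, at medians of -0.16 in the shortest and 0.07 in the longest eighth, and its removal moved no call of a member.

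Apoa4 changed by -4.92 ± 0.84 log2 units (limma adjusted p = 0.0111) and Apoc2 by -2.73 ± 0.50 (limma adjusted p = 0.0137). Without day 14 replicate 1 their adjusted p by limma was 0.10 and 0.12, and without day 14 replicate 2 it was 0.0533 and 0.0584. Apom changed by -2.85 ± 0.50 (limma adjusted p = 0.0121, and 0.135 without day 14 replicate 1). Apoc1 changed by 1.64 ± 0.30 (limma adjusted p = 0.0139, and 0.129 without day 14 replicate 1). Apoa2 changed by 1.45 ± 0.42 at an adjusted p of 0.049996 by limma, on the edge of the threshold, and it was not called in 11 of 17 alternatives. Day 14 replicate 1 is the library with the largest mitochondrial share, and the part of that share in these values was not tested.

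Scaling mattered for the comparisons with day 14. With each library set to the same total FPKM, the median of all genes moved by -0.16 log2 units for day 2 against control, -0.51 for day 14 against control and -0.37 for day 14 against day 2. The share of calls that were higher went from 45.8% to 29.4%, from 53.2% to 7.51% and from 56.4% to 19.5%. Under this scaling Apoc1 and Apom kept their calls at day 14 against control, with changes of 0.95 and -3.31. Apob was then called lower, at -1.16 (limma adjusted p = 0.0498), while Apoe and Apoa5 went to -0.30 and -0.42 without a call. Between day 14 and day 2 Apoc1 changed by 1.15 and kept its call, Apoa2 changed by 0.96 (limma adjusted p = 0.0529), and Apoa1 went to -0.20. Scaling by median ratios or by quantiles moved the median of all genes by at most 0.04, and with quantiles Apoc1 was at 0.63 against control (limma adjusted p = 0.165).

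The members fall into 2 gene clusters and 3 single genes. Apoa1, Apoc3, Apoa4 and Apoa5 lie within 43.3 kb of chromosome 9, and Apoc2, Apoc1 and Apoe, with Apoc4, within 27.6 kb of chromosome 7. The ratios of neighbours differed between groups for some pairs and overlapped for others. Within a library Apoa4 was 0.00549 and 0.0213 of the level of Apoa1 in control, 0.255, 0.215, 0.0658 and 0.158 of it at day 2, and 0.00476 and 0.0036 at day 14. Apoc2 was 0.0291 and 0.0346 of the level of Apoc1 in control, 0.248 to 0.855 of it at day 2, and 0.0227 and 0.0244 at day 14. For both ratios day 2 stood above all other libraries. Apoe was 2.75 and 2.95 times as high as Apoc1 in control, 2.21 to 3.17 times at day 2, and 0.832 and 1.71 times at day 14, so that control lay inside the day 2 range and day 14 below it. Apoc3 was 0.392 and 0.429 of the level of Apoa1 in control, 0.244 to 0.483 of it at day 2, and 0.439 and 0.422 at day 14, and all 3 groups overlapped. Apoa5 was 0.0461 and 0.0569 of the level of Apoa1 in control and 0.0345 to 0.0766 of it at day 2, which overlapped, and 0.0208 and 0.0298 at day 14, below all other libraries. These pairs were picked with the values known and are given as descriptions.

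Apoa4 had the widest range of the members over the 8 libraries, and the profile nearest to it was sought over all genes tested, as the root mean square difference of log2(FPKM + 1) profiles centred on their own means. The nearest were Sult1e1, an oestrogen sulfotransferase, at 0.665 log2 units, Ier3, an immediate early gene, at 0.768, Slc51b, a subunit of the basolateral bile acid exporter, at 0.807, Tnfrsf12a, the receptor of the cytokine TWEAK, at 0.81, and Cdkn1a, the cell cycle inhibitor p21, at 0.867. The median over 12330 genes was 2.64. Apoc2 was at 1.04, with 7 other genes nearer, and Apoa5 at 2.08, with 585 nearer. Sult1e1 stood at 0.244 and 0.186 FPKM in control, at 47.5, 83.8, 23.1 and 13.6 FPKM at day 2, and at 1.2 and 0.202 FPKM at day 14. All 5 genes were higher in each day 2 library than in any control or day 14 library. They were picked for nearness to Apoa4 over these same libraries, so this order largely follows from the choice.

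**Figure D5:**
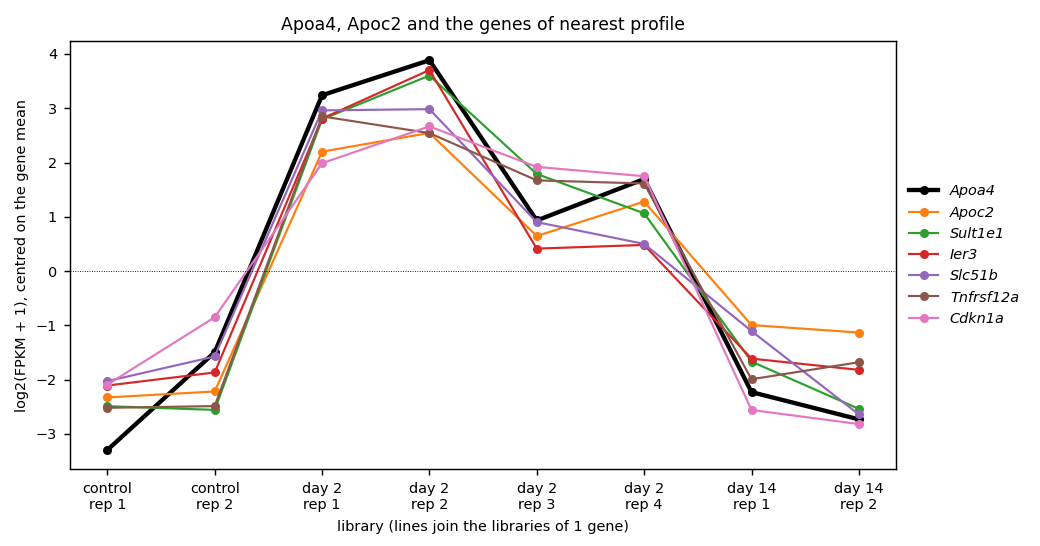
Centred log2(FPKM + 1) of Apoa4 (black), Apoc2 and the 5 genes of nearest profile over the 8 libraries, joined by lines for reading only. Each gene is above its mean in the 4 day 2 libraries and below it in the control and day 14 libraries. The 5 genes were picked for likeness to Apoa4 in these libraries.

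The other genes named as apolipoproteins held 9 tested of 15 listed. Of these 0 rose and 1 fell at day 2 against control. At day 14 against control 0 were called (limma), and 3 rose and 0 fell from day 2 to day 14. Of all genes tested, 9.72% were called higher and 11.5% lower at day 2 against control. The shares were 9.79% in either direction at day 14 against control, and 9.09% higher and 7.03% lower from day 2 to day 14. Apoc4, the neighbour of Apoc2, was at 1444 and 1383 FPKM in control, 2259.5, 4517, 2331 and 2503 FPKM at day 2, and 3387 and 3301 FPKM at day 14, above the controls in each library but not called (log2 change 0.97 ± 0.34 at day 2, limma adjusted p = 0.073, and 1.24 ± 0.39 at day 14, limma adjusted p = 0.0788). Apol7a fell at day 2 by 2.02 on the log2 scale, from 49.9 and 44.8 FPKM to between 8.83 and 14.7. From day 2 to day 14 Apol9b and Apol9a rose by 3.93 ± 0.70 and 2.99 ± 0.50. These 2 are near-identical copies whose shared reads make each level uncertain.

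Genes for assembly and secretion of VLDL were all measured, 18 of 18. At day 2 against control 2 rose and 4 fell, with a list median of -0.37 log2 units, where 9.72% and 11.5% of all genes tested were called. A1cf, the partner of the Apobec1 enzyme that edits the Apob transcript, fell from 29.2 and 34.1 FPKM to 3.29, 0.899, 5.30 and 3.43 (log2 change -3.07 ± 0.42; limma adjusted p = 0.0043). Mia2, an exporter of large cargo from the endoplasmic reticulum, fell from 26.1 and 30.8 FPKM to between 1.23 and 5.51, though the identifier of its row is not in GENCODE M21. Tm6sf2, which adds fat to nascent VLDL, rose by 1.81 ± 0.25, and Dgat1, which makes triglyceride, by 1.71, the latter named after its value was seen. Mttp, the transfer protein that loads Apob with lipid and also picked with its values known, was at 72.1 and 78.7 FPKM in control and at 52.3 to 78.5 at day 2 (log2 change -0.27 ± 0.23; limma adjusted p = 0.415). At day 14 against control 0 rose and 2 fell, Mia2 by 3.44 ± 0.51 and Sort1, a sorting receptor for Apob, by 1.31 ± 0.33. From day 2 to day 14 1 rose and 3 fell, among them Tm6sf2 by 1.59 ± 0.25 and the protein disulfide isomerase P4hb, a subunit of the transfer protein complex, by 1.44 ± 0.30. Of all genes tested, 5.21% were called higher and 4.58% lower at day 14 against control. From day 2 to day 14 these shares were 9.09% and 7.03%.

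For HDL formation and remodelling 14 of 15 genes were tested. The counts of this list and the next stand beside 11.5% of all genes tested called lower at day 2 against control. At day 14 against control 5.21% of all genes tested were called higher and 4.58% lower. From day 2 to day 14 these shares were 9.09% and 7.03%. At day 2 against control 0 rose and 2 fell: Pon1, an HDL-bound esterase, by 2.48 ± 0.56 log2 units and Lipc, hepatic lipase, by 2.27 ± 0.28. Lipc went from 86.0 and 80.3 FPKM to 11.3, 15.1, 21.7 and 19.5 at day 2 and 40.9 and 53.8 at day 14. At day 14 against control 0 were called (limma), the most abundant being Clu at 373 and 1031 FPKM, and from day 2 to day 14 3 rose, with Pon1 at 2.11 ± 0.56 and Lipc at 1.46 ± 0.28. Of 15 tested genes for uptake and lipase control 0 rose and 1 fell at day 2, Mylip, which degrades the LDL receptor, by 1.32 ± 0.26. At day 14 against control 1 rose and 3 fell. Angptl8, an inhibitor of lipoprotein lipase induced by feeding, rose from 19.2 and 9.18 FPKM to 896 and 320, after 4.13 to 48.4 at day 2 (log2 change 5.23 ± 1.08; limma adjusted p = 0.0328). Lipa, the lysosomal acid lipase, fell by 1.49 ± 0.32. From day 2 to day 14 Angptl8 rose by 4.77 ± 0.93 and Sdc1, a heparan sulfate receptor for remnants, fell by 2.14 ± 0.27.

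All 23 transcription factors listed as regulators of apolipoprotein genes were tested. At day 2 against control 0 rose and 5 fell, with a median of -0.46 log2 units, where 11.5% of all genes tested were called lower. Onecut1 fell by 2.30 ± 0.52 and Cebpa by 1.68 ± 0.34. Hnf4a, an activator of many apolipoprotein genes, was at 121 and 146 FPKM in control and at 101, 91.7, 155 and 72.1 at day 2, and Creb3l3, known to activate Apoa4, Apoc2 and Apoa5, at 133 and 150 against 186, 182, 95.3 and 124. Both overlapped the controls and both were picked after their values were seen. Transcript levels say nothing of the cleavage that activates Creb3l3. At day 14 against control 1 rose, Cebpb by 2.26 ± 0.44, and 1 fell, Nr5a2, an activator of Apom, by 1.36 ± 0.31, from 15.3 and 18.7 FPKM to 5.73 and 6.25. Of all genes tested, 5.21% were called higher and 4.58% lower in this comparison. Nr5a2 was also among the 5 called lower at day 2, at 5.88, 5.05, 9.97 and 7.94 FPKM. Apom was not called in that comparison (log2 change 0.21). The relation of Nr5a2 to the Apom level was not tested. After removal of the length and GC trend Nr5a2 was not called at day 2 (limma adjusted p = 0.0708). With the same removal Nr5a2 and Cebpb were not called at day 14 (limma adjusted p = 0.0714 and 0.0596). From day 2 to day 14 6 of these factors rose and 0 fell, where 9.09% of all genes tested were called higher. The bile acid receptor Nr1h4 at 2.6 ± 0.44 and Onecut1 at 2.27 ± 0.52 led them. Of the other genes taken by the naming rule, 14 of 16 calls at day 2 were lost without control replicate 1 and 14 of 16 without control replicate 2. All 8 at day 14 against control were lost without either control or without day 14 replicate 1, and 15 of 17 from day 2 to day 14 without day 14 replicate 1.

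Markers of other cells were read beside these results. Of 6 enterocyte markers only Fabp2, which mouse liver also expresses, passed the filter, at 48.9 to 54.6 FPKM in control and 58.4 to 168 at day 2. The other 5 were under 1 FPKM in each library. Of these, Sis and Alpi were listed at 0 in all control and day 2 libraries. Lct and Cdh17 were listed at 0 in both controls and each above 0 in 3 of the 4 day 2 libraries, at up to 0.0265 and 0.202 FPKM. Vil1 was at 0.0185 and 0.0546 FPKM in control and 0.036 to 0.102 at day 2. The part of such cells in the Apoa4 level was not tested. Monocyte and neutrophil markers, 9 in all, summed to 41.9 to 45.9 FPKM in control, to 191, 352, 115 and 66.1 FPKM at day 2, and to 29.9 and 84.8 FPKM at day 14. They too were highest in day 2 replicates 1 and 2, and their part in the results was not tested. Adipocyte markers summed to at most 5.03 FPKM and cholangiocyte markers to at most 19.97 FPKM in any library.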

How the data were processed

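RNA from 8 mouse liver libraries was sequenced after TruSeq library preparation, per the labels' protocols. The deposited table gives FPKM for 47719 genes, named so per the file headers. Tools in the submitters' processing notes are HISAT2 2.10, Cufflinks 2.2.1, DESeq2 and HTSeq, with 2 builds and no roles, while the design text has BWA, TopHat and Cufflinks. The one that made the table was not given in the sources used here, nor its annotation. Steps of low FPKM values gave relative depths of 0.635 to 1.13, and absolute depth is unknown. On log2(FPKM + 1), limma 3.58.1 in R 4.3.3 fitted 3 group means to genes reaching 1 FPKM in 2 or more libraries, with trend (residual degrees of freedom 5, prior 3.23), with Benjamini-Hochberg adjustment within each comparison at 0.05. Positions and transcript lengths came from GENCODE M21 (GRCm38), promoters from RefSeq (GRCm38.p6). Alternatives changed the pseudocount, filter, scaling, length and GC trend (splines of 4 degrees of freedom; 12307 genes), samples in the fit, variance trend or left out each library. The limma fit was also run on simulated independent libraries. These held neither the split of the day 2 libraries nor the trend with transcript length, so they do not test the fit against either. All members were named. Of each context list the rule took the 2 called genes of largest change or else the most abundant, with the 5 nearest profiles of the widest-ranging member. Members and lists were chosen with earlier results of these data known. Tf was read as Trf. Figures used matplotlib 3.10.9.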

Additional observations from a re-analysis of the deposited data

How the results depend on the processing

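The alternatives changed 1 choice at a time, and no result took the opposite sign with a call. With the length and GC trend removed, 1618 genes were called at day 2 against control (2620 as reported), and 410 at day 14 against control (1208 as reported), where 0 members were called higher. Without a filter, 691 genes were called at day 14 against control, with 0 members higher and 0 lower, and 0 members were called higher between day 14 and day 2. With the third group left out of the fit, 2664 genes and 4 members higher were called at day 14 against control, and 982 genes (1990 as reported) and 1 member higher between day 14 and day 2. At day 14 against control, 2 members were called higher with a filter at 5 FPKM or without the variance trend and 0 with quantile scaling, while 2 were called lower with equal totals. Quantile scaling called 3 members higher at day 2 (2 as reported), the third being Apoa1 at 0.81 (limma adjusted p = 0.0485), and 1 lower, Apob at -0.69 (limma adjusted p = 0.0448). Between day 14 and day 2, 1 member was called higher with a pseudocount of 0.1 or equal totals. The share of the family in all FPKM averaged 8.51% in control and 14.3% at day 14 without mitochondrial genes, and 5.0% in control, 6.27% at day 2 and 7.52% at day 14 without Apoe. The causes of these differences were not tested.

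Leaving out each library in turn gave 112 to 2837 genes called at day 2 against control, fewest without control replicate 2 (137 without control replicate 1), and 0 to 2 members higher. At day 14 against control it gave 1 to 2049 genes, 0 to 3 members higher and 0 to 1 lower, with 2 genes or fewer left without control replicate 1, control replicate 2 or day 14 replicate 1. Between day 14 and day 2 it gave 48 to 2414 genes, fewest without day 14 replicate 1, and 0 to 3 members higher and 0 to 3 lower. Where a group was left with 1 library, that library was assumed to vary like the other groups. No paired analysis was made, because no label gives a pairing and the replicate numbers used here only name the libraries. The titles of day 2 replicate 1 and day 14 replicate 1 share the number 2, and no label says what it stands for. Groups of 2 limit the precision of every comparison with control or day 14, and the unknown depth gives low FPKM values no counting error.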
